A study of Mus musculus with 4 samples.

Results

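The genes described here are those of the MAP kinase cascades and of the dual-specificity phosphatases, chosen by symbol: the MAP kinases (Mapk) and their named interacting and scaffold proteins, the kinase tiers above them (Map2k, Map3k, Map4k), and the numbered Dusp genes. The rule found 107 probes for 59 genes, 37 of the cascades and 22 Dusp genes, among the 16593 genes with a symbol on the array. For a gene with several probes, the brightest one by mean log2 intensity over the 4 arrays stands for it. A RefSeq gene table lists 71 mouse symbols that match the rule; the other 12, among them Map2k7 and Dusp5, were not analysed here.

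The samples were 2 arrays of mouse epiblast stem cells (EpiSC), pluripotent cells of postimplantation epiblast type, and 2 arrays of cells labelled parnate/mAMFGi, which the labels describe as converted mouse ES cells. Parnate (tranylcypromine) inhibits the histone demethylase LSD1; the labels do not spell out mAMFGi. EpiSC were grown in DF12 with serum replacement and bFGF at 10 ng/ml, and for the converted cells the labels give an ES cell medium, DMEM with fetal bovine serum and LIF at 1000 units/ml. Both were on irradiated fibroblast feeders, and the labels name no genotype, strain or line for either and no kinase inhibitor in either medium. They also do not say whether any kinase inhibitor was present when the converted cells were harvested. Medium, bFGF, LIF, conversion and any agent still present differ together between the groups and cannot be told apart, for the feedback genes such as Dusp6 as for the others. The comparison asks how expression in the converted cells differs from that in EpiSC.

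A MAP kinase cascade passes a signal through 3 tiers: a MAP3K phosphorylates a MAP2K, which phosphorylates a MAP kinase on a threonine and a tyrosine of its activation loop. The ERK arm carries signals of growth factors such as FGF, whereas the JNK and p38 arms respond mostly to stress and cytokines. Dual-specificity MAP kinase phosphatases (MKPs) remove both phosphates, and several of them are transcribed in response to the kinases they switch off. In mouse pluripotent cells, FGF signalling through ERK favours exit from the naive ES cell state, and EpiSC are maintained with FGF. Messenger levels, as measured here, are not kinase activity.

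Over all 25697 probes, median intensities were 50 to 52 on the 4 arrays, and replicates correlated at r = 0.996 (EpiSC) and r = 0.998 (parnate/mAMFGi) across probes. Pou5f1, the shared pluripotency factor, was high on every array (9628 to 10913). Of the other pluripotent cell markers, Sox2 rose from 229 and 224 to 644 and 795, and Sall4 from 3546 and 2817 to 8194.5 and 8693. Both were called higher. Nanog, at 2048 and 2040 in EpiSC and 1687 and 1773 in parnate/mAMFGi, did not pass. All 4 ES cell markers were higher in parnate/mAMFGi, Zfp42 for example at 49.1 and 66.8 in EpiSC and 2529 and 2610 in parnate/mAMFGi, and of the 2 EpiSC markers Fgf5 was lower and Otx2 higher. Of 14 measured feeder fibroblast markers, 10 were higher, 1 lower and 3 did not pass, beside 20.2% higher and 21.2% lower among all genes. Their summed intensity was 6578 and 4172 in EpiSC and 6869 and 6502 in parnate/mAMFGi. Acta2 alone made up 5143 and 2881 of this in EpiSC and 3292 and 3269 in parnate/mAMFGi, and 7 of the 14 read under 100 on all arrays. The collagen gene Col1a1 read 109.5 and 89.7 in EpiSC against 475 and 441 in parnate/mAMFGi. Thy1, the 1 marker called lower, went the other way, from 599 and 500 to 293.5 and 241. Ptprc, a leukocyte marker, stayed between 38.7 and 43.3. The feeders' part in the results below was not tested. In such bulk RNA, fewer cells of a type and less RNA per cell cannot be told apart.

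The members fell more often than they rose. A log2 fold change here is parnate/mAMFGi minus EpiSC, and a gene was called when its adjusted p in limma was under 0.05, with Benjamini-Hochberg adjustment over all probes. Of the 59 members, 27 were lower (45.8%), 12 were higher (20.3%) and 20 did not pass. Among all 16593 genes, 21.2% were lower and 20.2% higher, and 41.5% were called in either direction. These shares include many dim genes. With only the 12848 probes above the median intensity fitted, 26 of the 46 members tested were lower and 10 higher. Of all those 12848 probes, 4423 were lower and 4341 higher. The arrays of the groups did not overlap for 54 members, against 66.1% of all genes, and of the members' 107 probes 57 were called, against 38.4% of all probes. The members' median log2 fold change was −0.25, against 0.02 over all genes. At least 2-fold falls were called for 11 members (18.6%, against 6.32% of all genes) and at least 2-fold rises for 0 (against 5.11%). These 11 were Dusp26, Mapk12, Dusp6, Mapk8ip1, Mapk11, Dusp22, Dusp4, Mapk8, Mapk13, Dusp19 and Dusp1. Without parnate/mAMFGi replicate 1 the number of higher members was 7 instead of 12, with the calls of Dusp14, Dusp15, Dusp9, Map2k6 and Map3k14 lost. With 2 arrays a group, an exact permutation test of 1 gene could not give a p below 0.333, so the p-values rest on the spread that limma shares across probes.

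**Figure D1:**
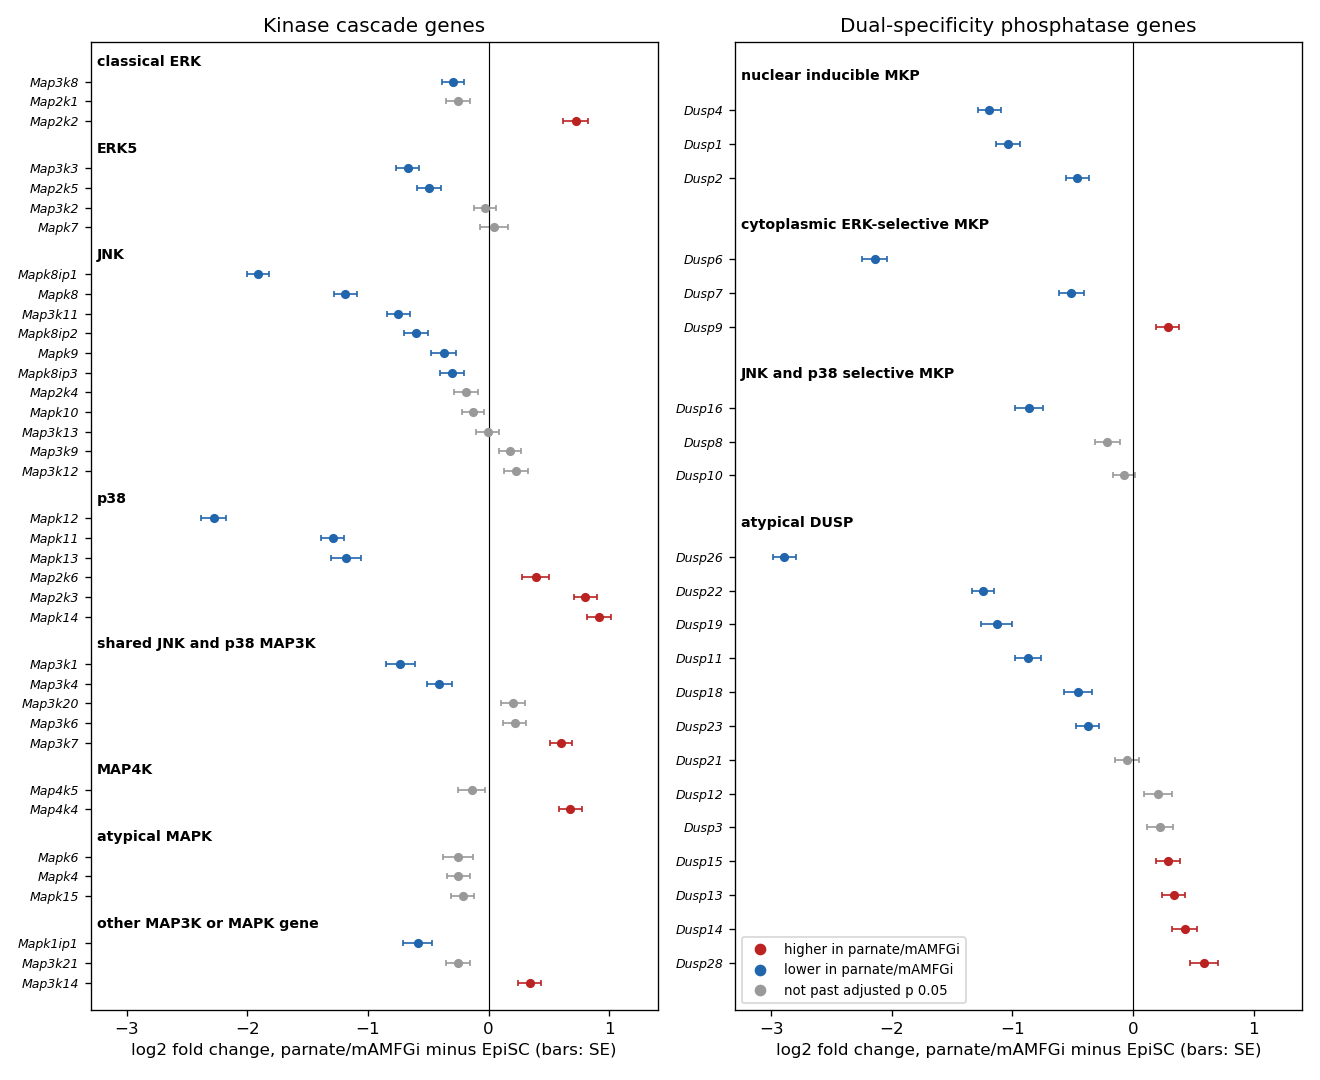
Log2 fold change (parnate/mAMFGi minus EpiSC, horizontal axis) of the 59 members, grouped by cascade arm or phosphatase class; bars are SE from limma with 2 arrays a group, and colour gives the call at an adjusted p of 0.05. The p38 group holds both the rise of Mapk14 (0.92) and the fall of Mapk12 (−2.28), and the leftmost point is Dusp26 (−2.89).

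Intensities carry a background: the lowest value on any array was 25.5, and 27 of the 59 members read under 100 on all 4 arrays. Folds of such genes are compressed, and a dim gene that did not pass may lie below what the array resolves. Among the members, 9 had a group mean above 1000.

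The 4 genes of p38 MAP kinases split by isoform. Mapk14 encodes p38 alpha, the broadly expressed isoform, and read 659 and 576 in EpiSC and 1153 and 1175 in parnate/mAMFGi (log2 fold change 0.92, SE 0.10, adjusted p = 2.50e-06). Both converted arrays lay above both EpiSC arrays, a 1.89-fold rise. Mapk12, which encodes p38 gamma, went from 371 and 439 to 82.0 and 84.1 (log2 fold change −2.28, SE 0.10, adjusted p = 2.70e-10), so it was 4.86-fold lower and near the dim end of the array in the converted cells. Its other probes fell as well, with log2 fold changes of −2.41 and −1.99. Mapk11 (p38 beta) went from 211 and 206 to 85.9 and 84.1 (log2 fold change −1.29, SE 0.09, adjusted p = 3.20e-08); its second probe read between 39.0 and 47.2 on every array and did not pass. Mapk13 (p38 delta) went from 249.8 and 325 to 134 and 118 (log2 fold change −1.18, SE 0.12, adjusted p = 1.55e-06), and its second probe gave −1.23. For all 4 genes the arrays of the groups did not overlap, as was so for 66.1% of all genes.

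The genes of MKK3 and MKK6, the kinases dedicated to p38, were both called higher, MKK6 at low intensity. Map2k3 (MKK3) read 1175 and 1072 in EpiSC and 1943 and 1972 in parnate/mAMFGi (log2 fold change 0.80, SE 0.10, adjusted p = 6.62e-06), 1.74-fold higher with no overlap. Map2k6 (MKK6) was dim, at 62.9 and 68.4 in EpiSC and 96.0 and 77.1 in parnate/mAMFGi (log2 fold change 0.39, SE 0.11, adjusted p = 0.0114). Leaving out EpiSC replicate 1 or parnate/mAMFGi replicate 1 ended that call (adjusted p = 0.0624 and 0.237), and its probes disagreed, since 1 of its 3 did not pass (−0.03). Of the 6 p38 genes, 3 thus rose and 3 fell, beside 20.2% higher and 21.2% lower among all genes. Each of the 5 besides Map2k6 kept its call in all 14 alternatives of processing or left-out arrays.

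The 4 p38 genes lie in neighbouring pairs in the RefSeq table (assembly GRCm38.p6), with 0 other protein-coding genes between partners. On chromosome 15, Mapk12 and Mapk11 are neighbours and both fell; on chromosome 17, Mapk14 and Mapk13 are neighbours and moved in opposite directions. No other measured members were neighbours in this sense. The 250 bases before each gene's RefSeq start are printed because the pairs differ in this way. They run 5′ to 3′ on the gene's strand in GRCm38.p6, and capitals mark matches to GGGCGGGG on either strand, a core of SP1 sites.
Mapk12, chr15:89140704-89140953, strand minus: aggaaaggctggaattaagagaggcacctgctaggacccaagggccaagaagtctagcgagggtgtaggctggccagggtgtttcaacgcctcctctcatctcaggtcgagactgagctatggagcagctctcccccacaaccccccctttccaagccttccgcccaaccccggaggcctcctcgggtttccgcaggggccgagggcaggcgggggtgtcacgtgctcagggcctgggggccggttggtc
Mapk11, chr15:89149607-89149856, strand minus: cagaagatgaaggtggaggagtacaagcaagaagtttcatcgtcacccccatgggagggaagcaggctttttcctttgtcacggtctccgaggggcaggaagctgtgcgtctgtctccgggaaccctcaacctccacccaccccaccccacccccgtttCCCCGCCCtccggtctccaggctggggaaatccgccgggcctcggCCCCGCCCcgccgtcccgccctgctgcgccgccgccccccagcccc
Mapk14, chr17:28691092-28691341, strand plus: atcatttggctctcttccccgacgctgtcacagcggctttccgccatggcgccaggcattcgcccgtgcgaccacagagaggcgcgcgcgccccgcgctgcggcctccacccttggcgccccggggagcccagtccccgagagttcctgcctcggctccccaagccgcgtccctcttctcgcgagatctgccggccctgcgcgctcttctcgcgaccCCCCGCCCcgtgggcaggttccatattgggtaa
Mapk13, chr17:28769067-28769316, strand plus: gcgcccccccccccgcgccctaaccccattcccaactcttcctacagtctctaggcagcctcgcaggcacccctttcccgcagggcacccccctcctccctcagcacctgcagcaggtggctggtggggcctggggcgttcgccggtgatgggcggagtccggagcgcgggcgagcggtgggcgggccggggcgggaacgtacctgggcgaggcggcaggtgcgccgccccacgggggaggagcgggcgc
Of these windows, Mapk11 held 2 matches and Mapk14 held 1; the Mapk12 and Mapk13 windows held 0. This motif was present in 16.1% of the 32851 windows in the table and in 33.9% of the members' 59 windows. RefSeq gives a second start for Mapk14, whose window held 0 matches. The windows differ in CG dinucleotides, with 11 for Mapk12, 18 for Mapk11, 30 for Mapk14 and 25 for Mapk13. Letters in a window are a description and say nothing of which factor binds there.

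Of the 11 measured genes of the JNK arm, 6 fell, 0 rose and 5 did not pass, beside 21.2% lower and 20.2% higher among all genes. Mapk8, which encodes JNK1, read 561 and 542 in EpiSC and 233 and 251 in parnate/mAMFGi (log2 fold change −1.19, SE 0.09, adjusted p = 9.96e-08), a 2.28-fold fall. Mapk9 (JNK2) was brighter, at 1379 and 1187 in EpiSC and 950.5 and 1026 in parnate/mAMFGi (log2 fold change −0.37, SE 0.10, adjusted p = 0.00881). That smaller difference rested on 1 of its 3 probes: the others gave 0.08 and 0.09, the mean over its probes −0.07 (adjusted p = 0.593), and the call was also lost without EpiSC replicate 1 (0.0741) or parnate/mAMFGi replicate 1 (0.131). Mapk10 (JNK3, known mainly from neurons) read 35.4 to 39.8 on the 4 arrays, near the floor.

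Above JNK, the kinase gene Map2k4 (MKK4) read 683 and 595 in EpiSC and 544 and 575 in parnate/mAMFGi and did not pass (log2 fold change −0.19, adjusted p = 0.172), but did without EpiSC replicate 2 (0.0476). Of its upstream kinases, Map3k11 (MLK3) went from 440.3 and 412 to 248 and 259 (log2 fold change −0.75, SE 0.09, adjusted p = 1.22e-05). Map3k12 (DLK), a relative of Map3k11, read 261 and 234 against 296 and 282 and did not pass (log2 fold change 0.23, adjusted p = 0.0871), though it passed as higher without EpiSC replicate 1 (adjusted p = 0.0377); Map3k9 and Map3k13 were under 50 on all arrays.

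The JIP scaffolds hold JNK together with its upstream kinases. Each of the 3 JIP genes measured was called lower, beside 21.2% lower among all genes. Mapk8ip1 (JIP1) read 557 and 572 in EpiSC and 153 and 147 in parnate/mAMFGi (log2 fold change −1.91, SE 0.09, adjusted p = 5.69e-10). This was a 3.76-fold fall with wide separation of the groups, and its second probe fell too (−1.45). Mapk8ip2 went from 176 and 157 to 112 and 108 (log2 fold change −0.60, SE 0.10, adjusted p = 1.42e-04). Mapk8ip3 was dim (38.1 to 51.6), its other probes did not pass, and its call was lost when EpiSC replicate 2 or either parnate/mAMFGi array was left out.

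**Figure D2:**
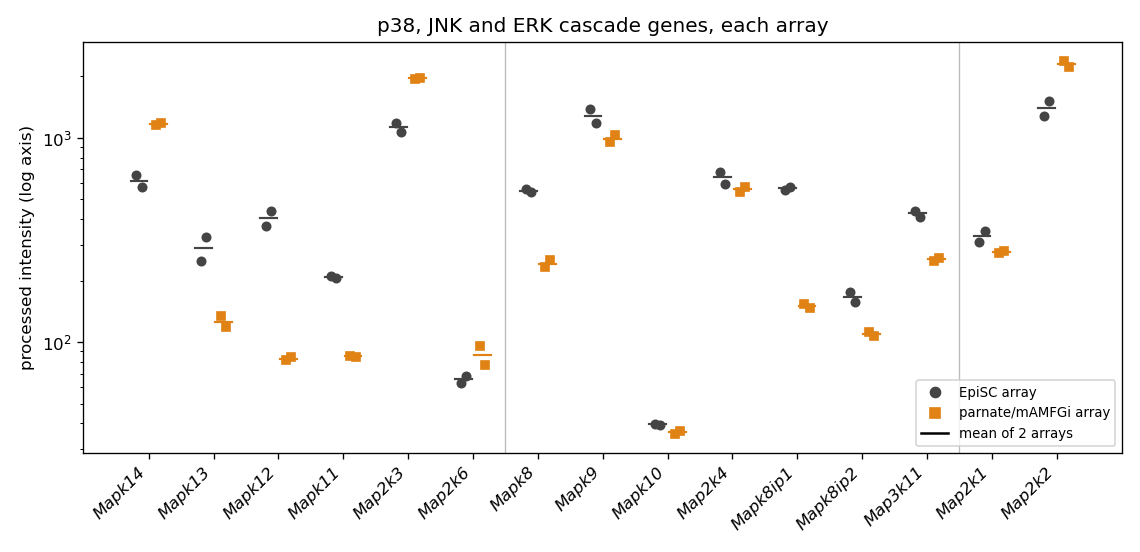
Processed intensity (log axis) of 15 p38, JNK and ERK cascade genes on each of the 4 arrays; points are arrays and short lines are means of 2 arrays. Mapk14, Map2k3 and Map2k2 lie higher in parnate/mAMFGi, whereas Mapk12, Mapk8 and Mapk8ip1 lie lower with no overlap.

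In the classical ERK arm, 1 of the 2 MEK genes rose and the other did not pass. Map2k2 (MEK2) read 1284 and 1517 in EpiSC and 2373 and 2230 in parnate/mAMFGi (log2 fold change 0.72, SE 0.10, adjusted p = 4.49e-05), and a second, dim probe gave 0.71. Map2k1 (MEK1) read 308 and 349.7 against 271 and 279.8 and did not pass (log2 fold change −0.25, adjusted p = 0.0597). It did pass as lower after scaling to a common median (0.0239), after cyclic loess (0.0394), without EpiSC replicate 1 (0.019) and in the table of mean values per gene (0.0435). Whether the 2 MEK genes changed by different amounts was not tested. Map3k8 (TPL2), a kinase that activates MEK in immune cells, was under 100 on all arrays and slightly lower (log2 fold change −0.30, adjusted p = 0.0178), a call lost when either parnate/mAMFGi array was left out.

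The ERK5 arm was lower at its upper tiers. Map2k5 (MEK5) read 202 and 185 in EpiSC and 144 and 130.3 in parnate/mAMFGi (log2 fold change −0.49, SE 0.10, adjusted p = 8.83e-04). Map3k3 (MEKK3), one of its activators, went from 635 and 674 to 419 and 402 (log2 fold change −0.67, SE 0.09, adjusted p = 3.30e-05). The ERK5 gene Mapk7 and the related activator Map3k2 were near the floor in all samples, at 40.9 to 51.2 and 38.9 to 40.2, and did not pass.

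Among MAP3Ks that feed both JNK and p38, Map3k1 fell and Map3k7 rose. Map3k1 (MEKK1) read 523 and 414 in EpiSC and 259 and 302 in parnate/mAMFGi (log2 fold change −0.73, SE 0.12, adjusted p = 1.44e-04). Map3k7, which encodes TAK1, the kinase used by TGF-beta family and interleukin receptors, was dim, at 61.1 and 57.8 in EpiSC and 92.1 and 88.1 in parnate/mAMFGi (log2 fold change 0.60, SE 0.09, adjusted p = 9.63e-05). Map3k4 (MEKK4) was lower (log2 fold change −0.41, adjusted p = 0.00497), a call lost without parnate/mAMFGi replicate 1, and Map3k6 and Map3k20 did not pass. Of the 7 probes of Map3k20, 3 dim ones passed as higher (0.26 to 0.52) although the brightest did not.

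Of the remaining kinase genes, Map4k4, a MAP4K upstream of JNK, rose from 177 and 166 to 279 and 269 (log2 fold change 0.68, SE 0.09, adjusted p = 3.08e-05), while Map4k5 was near the floor. Mapk1ip1, a gene of a MAP kinase interacting protein, fell from 320.3 and 419.5 to 238 and 250.5 (log2 fold change −0.59, SE 0.12, adjusted p = 9.27e-04), as did its other 2 probes (−0.51 and −0.34). The atypical kinase gene Mapk6 (ERK3) read 685 and 512 in EpiSC and 499 and 494 in parnate/mAMFGi and did not pass (log2 fold change −0.26, adjusted p = 0.125). Mapk4 and Mapk15, the other atypical MAP kinase genes, and Map3k21 were dim and also did not pass, but they lie close to the threshold: Mapk4 stayed uncalled in 6 of 14 alternatives, Map3k21 in 6 of 13 and Mapk15 in 9 of 13, and each was lower in the rest. Mapk4, Map3k21 and Mapk6 were each called lower when EpiSC replicate 2 was left out. Map3k14 (NIK), a kinase of noncanonical NF-kappa B signalling, was dim and slightly higher (log2 fold change 0.34, adjusted p = 0.0114), a call lost without parnate/mAMFGi replicate 1.

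Of the 9 measured MKP genes, 6 fell, 1 rose and 2 did not pass, beside 21.2% lower and 20.2% higher among all genes. The 5 brightest all fell. Among the 12848 probes above the median intensity, fitted alone, 4423 were called lower and 4341 higher. Dusp6 (MKP3), a cytoplasmic phosphatase selective for ERK and a feedback target of FGF signalling, was the brightest member of all. It read 7404 and 6620 in EpiSC and 1486 and 1697 in parnate/mAMFGi (log2 fold change −2.14, SE 0.10, adjusted p = 5.44e-10), 4.41-fold lower. The other Dusp6 probes gave −2.30 and −1.45, the last from a dim probe. Its relative Dusp7 went from 357 and 296 to 232 and 224 (log2 fold change −0.51, SE 0.11, adjusted p = 0.00112), a smaller fall without overlap. Dusp9 (MKP4), X-linked and also ERK-selective, read 38.1 and 37.9 in EpiSC and 47.6 and 45.1 in parnate/mAMFGi. This was a rise at the floor (log2 fold change 0.29, adjusted p = 0.0238) that was lost in 6 of 13 alternatives (adjusted p up to 0.187), among them leaving out EpiSC replicate 2 or either parnate/mAMFGi array.

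The nuclear MKP genes, which growth factors and stress induce rapidly, were lower for each of the 3 measured, beside 21.2% lower among all genes. Dusp1 (MKP1), which acts on p38 and JNK as well as ERK, read 2036 and 1769 in EpiSC and 917 and 928 in parnate/mAMFGi (log2 fold change −1.04, SE 0.10, adjusted p = 7.07e-07). Dusp4 (MKP2) went from 1290 and 1174 to 519.8 and 559 (log2 fold change −1.19, SE 0.10, adjusted p = 1.37e-07), and its other probes gave −0.95 and −0.54. The falls were 2.06-fold for Dusp1 and 2.28-fold for Dusp4, without overlap of the groups. Dusp2 (PAC1) was dim, at 65.0 and 69.4 in EpiSC and 47.9 and 49.6 in parnate/mAMFGi (log2 fold change −0.46, adjusted p = 9.67e-04), and its second probe did not pass (−0.03).

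Of the phosphatases that prefer JNK and p38, Dusp16 (MKP7) fell from 1130 and 888 to 531 and 569.6 (log2 fold change −0.87, SE 0.11, adjusted p = 1.99e-05). Its other probes fell as well (−0.60 and −0.25). Dusp8 and Dusp10 read under 100 on every array and did not pass (log2 fold change −0.21, adjusted p = 0.133 and log2 fold change −0.08, adjusted p = 0.617). A second Dusp10 probe, at 65.5 and 57.0 in EpiSC and 49.5 and 48.5 in parnate/mAMFGi, was called lower. Its log2 fold change was −0.32 (adjusted p = 0.0192 in limma). The gene stayed uncalled in all 14 alternatives, the mean of its probes among them.

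**Figure D3:**
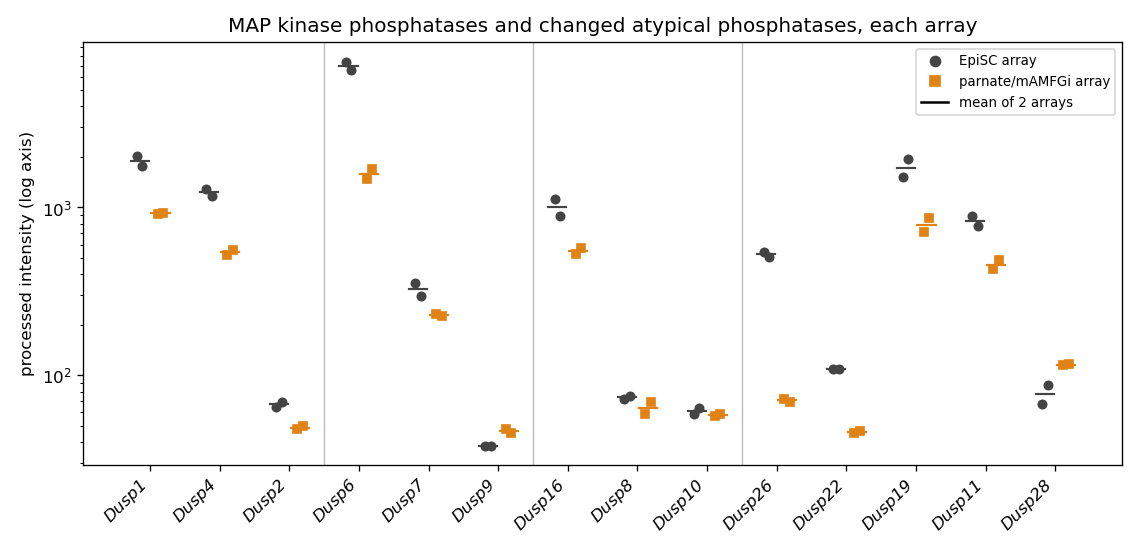
Processed intensity (log axis) of the 9 MKP genes and 5 atypical phosphatase genes on each array; vertical lines part the nuclear, cytoplasmic, JNK and p38 selective and atypical classes, and short lines are means of 2 arrays. Dusp6 is brightest and separates by 4.41-fold, while Dusp2, Dusp8, Dusp9 and Dusp10 sit under 100 throughout.

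The 250 bases before the start are printed for Dusp6, the MKP gene with the largest fall, and for Dusp1, long known as a gene with cAMP response elements. They are in the same form as above, with capitals for TGACGTCA (the cAMP response element), TGACTCA (AP-1), CCGGAAG (an ETS core) and GGGCGGGG on either strand.
Dusp6, chr10:99262981-99263230, strand plus: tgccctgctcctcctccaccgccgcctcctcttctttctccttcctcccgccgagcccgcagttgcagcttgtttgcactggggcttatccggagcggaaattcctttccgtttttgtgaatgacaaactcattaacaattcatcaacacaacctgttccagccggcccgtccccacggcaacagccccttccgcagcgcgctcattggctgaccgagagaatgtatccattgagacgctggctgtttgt
Dusp1, chr17:26508473-26508722, strand minus: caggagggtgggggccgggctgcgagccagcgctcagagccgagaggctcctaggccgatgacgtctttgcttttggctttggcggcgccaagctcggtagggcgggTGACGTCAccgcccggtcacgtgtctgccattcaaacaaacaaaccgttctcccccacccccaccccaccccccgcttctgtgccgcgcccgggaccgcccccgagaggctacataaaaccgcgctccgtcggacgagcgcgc
The Dusp6 window held 0 matches to these 4 words, and the Dusp1 window held 1 cAMP response element, which begins 143 bases before the start. Of 46 members with a window in the table, 3 held TGACGTCA: Dusp1, which fell, and Dusp8 and Mapk10, which did not pass. Counted per window, TGACGTCA was present in 5.08% of the members' 59 windows and in 1.55% of all windows. TGACTCA was present in 1.69% and 4.46%, and CCGGAAG in 5.08% and 6.91%. The median number of CG dinucleotides was 16 in the members' windows and 6 in all windows. No match says only that these letters are absent from this window.

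The largest fall of any member was in an atypical phosphatase gene. Dusp26, whose product lacks the kinase-docking domain of the MKPs, read 546 and 506 in EpiSC and 72.3 and 69.3 in parnate/mAMFGi (log2 fold change −2.89, SE 0.09, adjusted p = 9.59e-12), 7.42-fold lower. The converted arrays read close to the floor, so this fold is a compressed one. Dusp22, a phosphatase linked to JNK signalling, went from 109 and 109 to 45.2 and 46.6 (log2 fold change −1.25, SE 0.09, adjusted p = 4.67e-08), on the brighter of its 2 probes only.

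Dusp19 and Dusp11 were bright in EpiSC and also lower. Dusp19, whose product binds the JNK kinase MKK7, read 1520 and 1941 in EpiSC and 712 and 863 in parnate/mAMFGi (log2 fold change −1.13, SE 0.13, adjusted p = 3.19e-06). Its second probe was at the floor, between 31.3 and 33.8. Dusp11, which encodes an RNA 5′-phosphatase and not a MAP kinase phosphatase, went from 894 and 777 to 427 and 487 (log2 fold change −0.87, SE 0.11, adjusted p = 8.45e-06). Its second probe, at 228 and 322 in EpiSC and 296 and 295 in parnate/mAMFGi, did not pass (0.12), so the probes of Dusp11 disagree well above the floor.

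Rises among the atypical genes were small and at low intensity. Dusp28 read 67.3 and 87.5 in EpiSC and 114 and 116 in parnate/mAMFGi (log2 fold change 0.59, SE 0.12, adjusted p = 8.19e-04). Dusp13, Dusp14 and Dusp15 were higher by 0.34, 0.43 and 0.29 on the log2 scale with arrays between 43.9 and 104.9. The Dusp15 call was kept in 5 of 14 alternatives and was lost when either EpiSC array or parnate/mAMFGi replicate 1 was left out. The other probes of Dusp13 (0.10 and 0.10) and of Dusp15 (−0.09) did not pass. With all probes of a gene averaged, Dusp13 and Dusp15 were not called (adjusted p = 0.118 and 0.402 in limma). Dusp18 and Dusp23 were lower, with log2 fold changes of −0.45 and −0.38 and all arrays under 70. Calls were lost without parnate/mAMFGi replicate 1 for Dusp14 and without parnate/mAMFGi replicate 2 for Dusp13 and Dusp23, and that of Dusp18 when EpiSC replicate 1 or either parnate/mAMFGi array was left out. The genes Dusp3, Dusp12 and Dusp21 did not pass, but Dusp3 and Dusp12 were called higher without EpiSC replicate 2 (adjusted p = 0.0171 and 0.0180). In all, 4 of the 13 atypical genes rose, 6 fell and 3 did not pass, beside 20.2% higher and 21.2% lower among all genes.

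Of the 27 members with more than 1 probe, the probes of 15 shared 1 call and those of 12 differed, and for 0 of them did 2 probes pass in opposite directions. The plot of probes against intensity shows that most probes at odds with the brightest one were dim, the brightest of these odd probes being the second ones of Dusp11 and Mapk9. When all probes of a gene were averaged, Mapk11 (−0.71), Dusp22 (−0.59), Dusp16 (−0.57), Dusp19 (−0.55), Dusp11 (−0.37) and Dusp2 (−0.25) were still called lower, at smaller log2 fold changes than on their brightest probes.

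**Figure D4:**
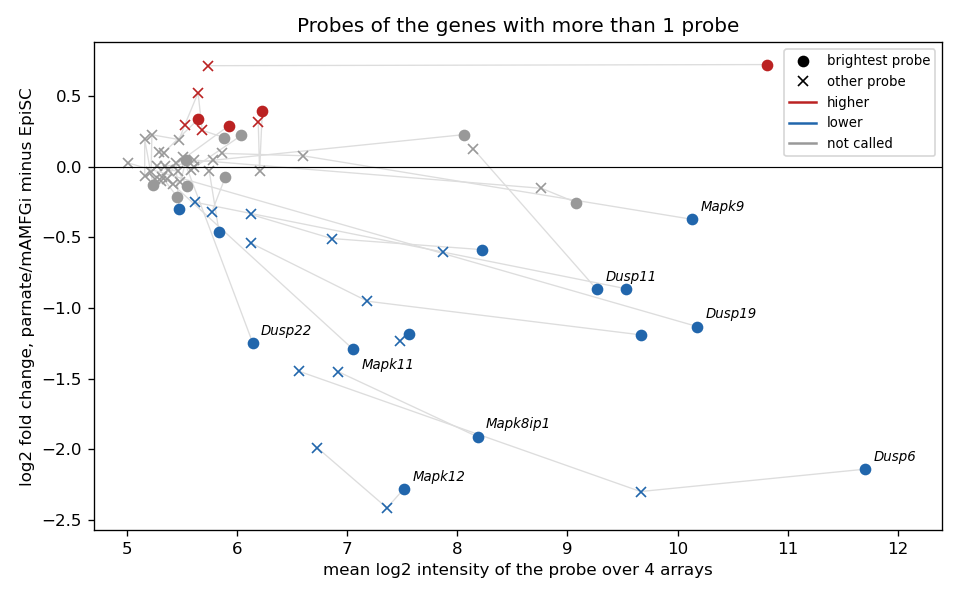
Log2 fold change (parnate/mAMFGi minus EpiSC) against mean log2 intensity over the 4 arrays for each probe of the 27 genes with more than 1 probe; circles are the brightest probe of a gene, crosses its others, grey lines join them, and colour gives the call. Probes of Dusp6, Mapk12 and Mapk8ip1 agree in direction, and no gene has both a red and a blue probe.

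Genes around the cascades, which are not members, are set beside the 20.2% higher and 21.2% lower among all genes. Of 17 measured RAS and RAF input genes, 3 rose, 5 fell and 9 did not pass (median log2 fold change −0.07). Rras, a RAS-related GTPase, went from 5185 and 5863 to 446 and 392 (log2 fold change −3.72, adjusted p = 1.70e-12), and the adaptor Gab1 rose from 1316 and 1034 to 5452 and 5951 (log2 fold change 2.29, adjusted p = 8.29e-10). Among genes that link receptors to RAS, the adaptor Shc1 went from 7892 and 6451 to 3693 and 3441 and the phosphatase Ptpn11 from 3504 and 3007 to 1836 and 1722, both called lower. Averaged over their probes Shc1 was at −0.27 and Ptpn11 at −0.38 on the log2 scale, over 1.5 times smaller than on the brightest probe but still called lower.

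Of 8 measured kinases downstream of MAP kinases, 1 rose, 4 fell and 3 did not pass (median −0.19). Mapkapk2, the main p38 substrate kinase, went from 578 and 458 to 272 and 263 (log2 fold change −0.94, adjusted p = 6.90e-06), whereas its relative Mapkapk3 rose from 529.9 and 570.1 to 775 and 766 (log2 fold change 0.49, adjusted p = 6.27e-04). The kinase genes Mknk2 (−1.06) and Mknk1 (−0.46), which phosphorylate the cap-binding factor eIF4E, were lower; the Mknk1 call was lost without parnate/mAMFGi replicate 2 (adjusted p = 0.0524).

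Of 14 measured stress kinase adaptors and inputs, 2 rose, 7 fell and 5 did not pass (median −0.23). Tab1, a partner of TAK1 that also binds p38 alpha, went from 997 and 1013 to 406 and 406 (log2 fold change −1.31, adjusted p = 2.74e-08). Tab3, in contrast, was called higher (log2 fold change 0.76, adjusted p = 2.32e-05), and Tab2 did not pass (−0.16). The JNK scaffold gene Spag9 (JIP4) went from 355 and 263 to 146 and 146 (log2 fold change −1.06, adjusted p = 5.23e-06). Averaged over all probes, Tab1 was at −0.59 and Spag9 at −0.35, against −1.31 and −1.06 on the brightest probe, and both were still called lower. The MEKK4 activators split, with Gadd45g rising from 852 and 979 to 2538 and 2464 (1.45) and Gadd45b falling from 148 and 173 to 82.0 and 77.9. Gadd45a did not pass (0.19). Of 13 transcription factor genes whose products MAP kinases phosphorylate or that partner them, 2 rose, 5 fell and 6 did not pass (median −0.14). The falls included Ddit3 (−1.67), Fos (−1.38) and Junb (−0.71), and Jun, which went from 166 and 149.6 to 80.8 and 77.1; the last 3 code for AP-1 subunits.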

How the data were processed

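Biotin-labelled cRNA was hybridised to Illumina bead arrays, per the labels' protocols. The values used are the authors' deposited intensities, on a linear scale. Neither the software nor the background correction or normalization behind them is given in the sources used here. A second deposited table was not used, because its 8 columns of signals and detection values carry names that match no sample.

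Intensities were log2-transformed with no pseudocount, filter or further normalization. The groups were compared by lmFit and eBayes of limma 3.58.1 (R 4.3.3), with Benjamini-Hochberg adjustment across the 25697 probes and calls at 0.05. The fit had 2 residual degrees of freedom and 11.8 from the prior. The fit was tested on simulated data. The number of arrays limits the precision, and no slide or scan date was available as a batch.

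Symbols came from the platform annotation (23978 probes with 1 symbol, 1719 with none or with several). All 59 members were found in RefSeq (GRCm38.p6) under the same symbol. Promoter windows are RefSeq's, cut to the bases before the start. The members and lists were chosen with earlier results of these data known. Named are 19 measured core kinase and MKP genes whatever their values, 16 other called members with non-overlapping arrays and an absolute log2 fold change of at least 0.5, up to 4 called genes of each pathway list, and others where a count of few genes needed them. Replicates of the same number deviated with a correlation of −0.06 between groups, so they were not treated as pairs.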

Additional observations from a re-analysis of the deposited data

How the results depend on the processing

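The fit was repeated under 14 alternatives: quantile normalization, scaling to a common median, cyclic loess, normexp with offsets of 50 and 16, the brighter probes alone, eBayes with trend or robust, the replicate block, the mean of a gene's probes, and leaving out each array. Called probes numbered 9870 and ranged from 7490 to 9986. Lower members numbered 27 and ranged from 22 (without parnate/mAMFGi replicate 1) to 31. Higher members numbered 12 and ranged from 9 to 12 in alternatives with all arrays and from 7 to 12 when 1 array was left out; the 7 came without parnate/mAMFGi replicate 1. With 3 arrays, the lone array of a group is assumed to vary like the others. Of the 27 lower members, 21 kept their call in every alternative that tested them, as did 6 of the 12 higher ones. With the replicate block, 12 members were higher and 27 lower, and 0 calls of members changed; numbers shared between groups do not show pairing. Of 75 genes followed through these refits (the 59 members and 16 pathway genes), 52 kept their side of the threshold throughout, 23 changed sides at least once, and 0 reversed. Among brighter probes alone, 46 members were tested. The absence of a usable detection value limits what can be said of the 27 members under 100 on all arrays.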
